A study of Homo sapiens with 9 samples.

Results

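Aminoacyl-tRNA synthetases attach each amino acid to its matching tRNA and so supply the ribosome with charged tRNA. The cytosol and the mitochondrion each have their own set of these enzymes, all encoded in the nucleus, and most mitochondrial enzymes come from a separate gene whose symbol ends in 2. Several cytosolic enzymes are held together with the scaffolds AIMP1, AIMP2 and EEF1E1 in a multi-synthetase complex. Many cytosolic synthetase genes are known targets of ATF4, the transcription factor that is translated when amino acids run short. The 39 genes described here were chosen by symbol from the 60966 genes with a row in the deposited tables, and comprise 20 cytosolic synthetase genes, 17 mitochondrial ones and the scaffolds AIMP1 and AIMP2. GARS1 and KARS1 were counted as cytosolic, although each also makes the mitochondrial enzyme.

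RNA-seq was performed on H1299, a human cell line from a non-small cell lung carcinoma, 48 h after transfection. There were 3 samples with the scrambled control siRNA (Scramble), 3 after Si-FIBP#1 and 3 after Si-FIBP#2, different siRNAs against FIBP, which encodes an intracellular protein that binds acidic fibroblast growth factor. All groups were transfected and none was left untreated. The paper states in general that its experiments were independently repeated at least 3 times, without naming the RNA-seq samples. The labels do not say whether the samples of a group came from separate cultures, so the p-values measure the spread between these samples, which may be technical. FIBP stood at 88.38, 79.49 and 77.74 FPKM (fragments scaled to transcript length and library depth) in Scramble, at 7.49, 7.77 and 4.3 after Si-FIBP#1, and at 7.13, 5.92 and 8.21 after Si-FIBP#2. These are log2 differences of -3.50 and -3.36 (limma, adjusted p = 9.4e-07 and 1.42e-06). The estimated depth was 20200000 to 24150000 fragments per library. Of the markers used to check the line, the epithelial keratins KRT8 and KRT18 were present at 67.15 to 108.14 and 142.89 to 483.13 FPKM, and both were lower in all 6 FIBP-depleted samples. KRT19 did not exceed 0.29 FPKM, the blood and vessel markers PTPRC, PECAM1 and HBB did not exceed 0.27 FPKM, and the fibroblast marker DCN did not exceed 1.42 FPKM.

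The cytosolic genes were the more abundant class. FPKM is a value per transcript length, so levels can be set side by side between genes, but gene values also sum short transcripts. Over transcripts of at least 1000 nt the Scramble mean of QARS1 was 84.86 in place of 158.25 FPKM. That of WARS1 was 65.86 in place of 122.64, and that of KARS1 158.71 in place of 161.5. The mean level in Scramble ranged from 20.3 FPKM for FARSB, the beta subunit of the phenylalanine enzyme, to 161.5 FPKM for KARS1, the lysine enzyme, with a median of 96.1 FPKM over the 20 cytosolic genes. The 17 mitochondrial genes ranged from 3.21 FPKM for PARS2, the proline enzyme, to 53.9 FPKM for IARS2, the isoleucine enzyme, with a median of 15.8 FPKM. AIMP2 stood at 56.6 ± 2.66 and AIMP1 at 42.4 ± 2.11 FPKM in Scramble (SD, n = 3). All 39 genes reached the 1 FPKM in 3 samples that testing required.

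Pooled over both directions, the share of synthetase genes called after FIBP depletion was near that of all genes tested. By direction, lower calls with Si-FIBP#2 exceeded their share over all genes and higher calls fell below theirs, which was not tested. With Si-FIBP#1, 10 of the 39 genes were higher than in Scramble and 10 were lower at a false discovery rate below 0.05 (limma on log2(FPKM + 1), Benjamini-Hochberg adjustment over 14985 genes), against 27.8% higher, 19.9% lower and so 47.7% in either direction among all genes tested. With Si-FIBP#2, 13 were lower and 9 higher, against 17.7% and 31.1%, or 48.8% in either direction. The siRNAs were compared with the same Scramble samples. Among the cytosolic genes Si-FIBP#1 gave 4 higher and 6 lower, and Si-FIBP#2 gave 3 higher and 7 lower. Among the mitochondrial genes the counts were 5 higher and 4 lower for Si-FIBP#1 and 6 higher and 5 lower for Si-FIBP#2. The median log2 difference was -0.08 and -0.09 over the cytosolic genes, -0.02 and 0.06 over the mitochondrial genes, and 0.07 and 0.11 over all genes tested. These medians depended on the scaling. When libraries were put on a common scale by the median ratio over genes, the split became 7 higher and 14 lower for Si-FIBP#1 and 3 higher and 16 lower for Si-FIBP#2, the median of the mitochondrial genes with Si-FIBP#2 turned to -0.03, and the median of all genes was 0.02 and 0.03. TPM scaling also gave 7 higher and 14 lower for Si-FIBP#1. Over all genes, 7146 and 7309 of 14985 passed in either direction in the main analysis. Under median ratio scaling 6995 and 6988 of 14946 did, and under TPM scaling 7038 of 15646 did with Si-FIBP#1. These totals pool both directions. The shares higher and lower over all genes under these scalings are not given, so the splits above have no background by direction.

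**Figure D1:**
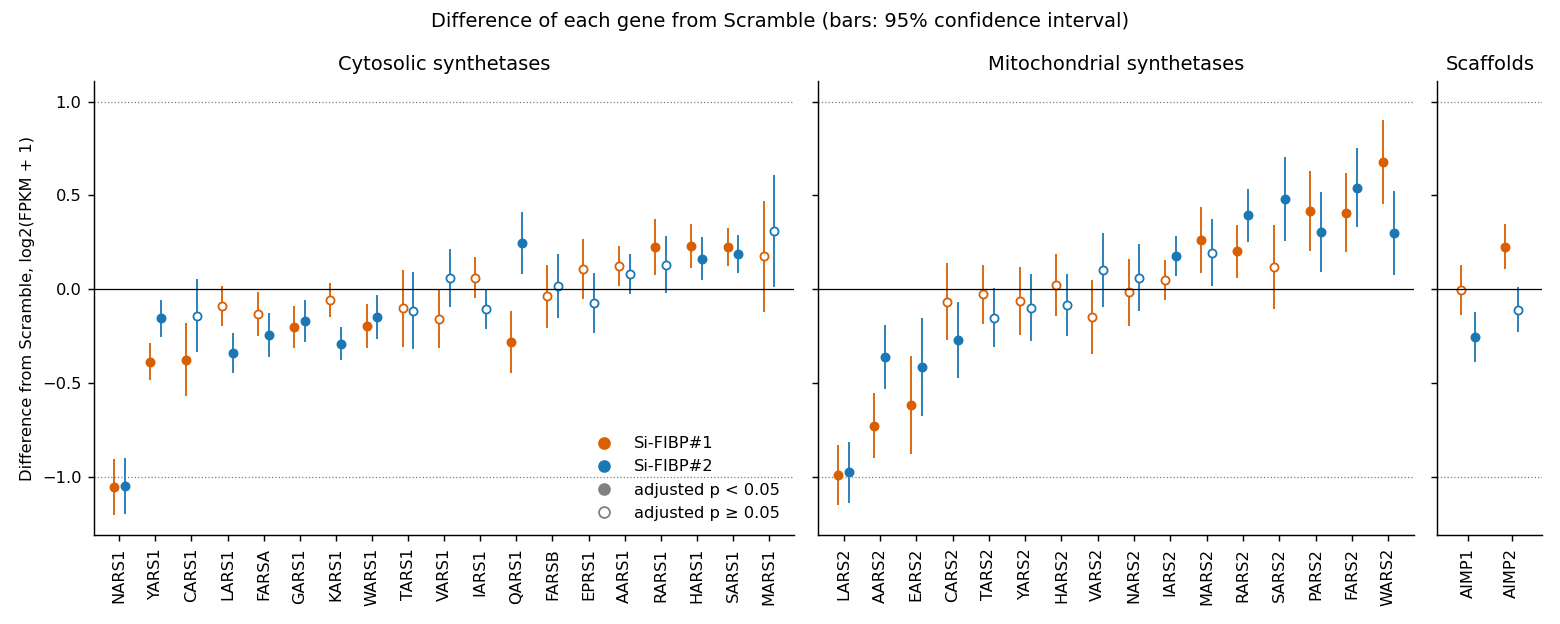
Difference of the same 37 genes from Scramble on the log2(FPKM + 1) scale for Si-FIBP#1 and Si-FIBP#2, with 95% confidence intervals from limma over 3 samples per group. Filled points passed the adjusted threshold of 0.05 and dotted lines mark a 2-fold difference. NARS1 and LARS2 stand lowest, WARS2 is highest with Si-FIBP#1 and FARS2 with Si-FIBP#2, and QARS1 is the gene whose filled points lie on either side of 0.

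Over both siRNAs, 8 genes were lower with each, against 13.7% of all genes tested, and 6 were higher with each, against 21.8%. Among the 8 were the cytosolic NARS1, YARS1, GARS1 and WARS1 and the mitochondrial LARS2, AARS2 and EARS2. The 6 comprised the cytosolic HARS1 and SARS1 and the mitochondrial WARS2, FARS2, PARS2 and RARS2. These joint counts were not stable. Under median ratio scaling FARS2 alone of the 6 kept both calls. Without Scramble replicate 2, SARS1 and FARS2 alone of the 6 kept them, and YARS1, GARS1 and WARS1 of the 8 lost their Si-FIBP#2 call. QARS1 was the gene that passed in opposite directions, against 0.487% of all genes tested. Another 5 genes passed with Si-FIBP#1 alone, 7 with Si-FIBP#2 alone and 12 with neither. In 11 genes all 6 depleted samples lay below all 3 Scramble samples, against 16.5% of all genes, and in 10 genes they all lay above, against 26.3%. On the log2(FPKM + 1) scale, NARS1 was the gene past the 2-fold threshold of the study's methods with each siRNA, against 5.66% of all genes after Si-FIBP#1 and 5.05% after Si-FIBP#2. LARS2, at 45.3% and 45.8% of Scramble in FPKM, fell just short on this scale.

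NARS1, the cytosolic enzyme that charges tRNA with asparagine, fell to less than 48% of its Scramble level. It stood at 94.78, 93.15 and 98.3 FPKM in Scramble, at 45.57, 45.92 and 44.71 after Si-FIBP#1, and at 49.62, 41.15 and 46.26 after Si-FIBP#2. The groups were far apart, with no depleted sample above 49.62 FPKM and no Scramble sample below 93.15 FPKM. The log2 difference was -1.05 with Si-FIBP#1 (SE 0.07, limma, adjusted p = 2.59e-06) and -1.05 with Si-FIBP#2 (SE 0.07, adjusted p = 3.19e-06). The difference between the siRNAs was 0.005, with a 95% confidence interval of -0.144 to 0.153. The 2-fold threshold was narrowly missed with Si-FIBP#2 when Si-FIBP#2 replicate 2 was left out (-0.979) and with Si-FIBP#1 over annotated transcripts alone (-0.999).

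LARS2, which charges the mitochondrial leucine tRNA, fell by a similar share from a much lower level. Its values were 9.86, 9.71 and 10.12 FPKM in Scramble, 4.7, 4.22 and 4.53 after Si-FIBP#1, and 4.47, 4.56 and 4.56 after Si-FIBP#2. All depleted samples lay below 4.8 FPKM. In FPKM this was 45.3% and 45.8% of Scramble, but the added 1 compresses changes at low FPKM, and the log2 differences were -0.99 (SE 0.07, limma, adjusted p = 6.01e-06) and -0.98 (SE 0.07, adjusted p = 7.51e-06), just short of 2-fold. With a pseudocount of 0.1 in place of 1 they were -1.13 and -1.11. LARS1, its cytosolic counterpart, had a log2 difference of -0.09 with Si-FIBP#1 (adjusted p = 0.14) and of -0.34 with Si-FIBP#2 (adjusted p = 0.000321).

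Among the other mitochondrial genes that fell, AARS2 and EARS2 showed the larger changes with Si-FIBP#1. AARS2, the alanine enzyme, stood at 8.76, 9.14 and 8.49 FPKM in Scramble, at 4.94, 4.91 and 4.89 after Si-FIBP#1, and at 7.12, 6.12 and 6.66 after Si-FIBP#2. The 3 groups did not overlap, and the Si-FIBP#2 samples lay between the others. The log2 differences were -0.73 (SE 0.08, limma, adjusted p = 5.59e-05) and -0.36 (SE 0.08, adjusted p = 0.00355). AARS1 charges the same amino acid in the cytosol and had differences of 0.12 (adjusted p = 0.0546) and 0.08 (adjusted p = 0.191).

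EARS2 charges mitochondrial tRNA with glutamate, including the glutamine tRNA, whose glutamate is then converted. It was listed at 15.84, 14.54 and 20.21 FPKM in Scramble, at 10.36, 11.27 and 10.04 after Si-FIBP#1, and at 12.58, 13.25 and 11.07 after Si-FIBP#2. The highest depleted sample was below the lowest Scramble sample, and Scramble replicate 3 stood above the other Scramble samples. The differences were -0.62 (SE 0.12, limma, adjusted p = 0.00191) and -0.42 (SE 0.12, adjusted p = 0.0147). Without Si-FIBP#2 replicate 3 the latter was -0.35 (adjusted p = 0.0548), and over transcripts of at least 1000 nt it was -0.27 (adjusted p = 0.0144).

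YARS1, GARS1 and WARS1, the cytosolic enzymes for tyrosine, glycine and tryptophan, fell by less. YARS1 stood at 106.43, 109.53 and 107.33 FPKM in Scramble, at 83.02, 84.4 and 79.22 after Si-FIBP#1, and at 94.75, 96.16 and 99.32 after Si-FIBP#2, and its 3 groups did not overlap. The differences of YARS1 were -0.39 (limma, adjusted p = 9.33e-05) and -0.15 (adjusted p = 0.016). GARS1 had 123.98, 130.98 and 133.19 FPKM in Scramble, 106.65, 112.87 and 117.47 after Si-FIBP#1, and 112.7, 117.38 and 114.61 after Si-FIBP#2. Its depleted samples reached 117.47 FPKM at most and the differences were -0.20 (limma, adjusted p = 0.00819) and -0.17 (adjusted p = 0.019). WARS1 was at 130.1, 118.52 and 119.3 FPKM in Scramble, 104.76, 104.43 and 111.19 after Si-FIBP#1, and 107.15, 110.37 and 114.29 after Si-FIBP#2. All its depleted samples lay below all Scramble samples, and the differences were -0.20 (limma, adjusted p = 0.0119) and -0.15 (adjusted p = 0.0422). Under median ratio scaling the Si-FIBP#2 differences were larger, at -0.25, -0.27 and -0.24 for YARS1, GARS1 and WARS1 (adjusted p = 0.00191, 0.00263 and 0.00261). The calls of WARS1 were lost when transcripts assembled by the authors were left out (-0.09 and -0.07, adjusted p = 0.236 and 0.387). With Si-FIBP#2, the call of YARS1 was lost without Scramble replicate 2 (-0.14, adjusted p = 0.0642), that of GARS1 without Scramble replicate 2 or 3 or Si-FIBP#2 replicate 1 or 3 (-0.17 to -0.15, adjusted p = 0.0511 to 0.0718), and that of WARS1 without any 1 of the Scramble samples, Si-FIBP#1 replicate 1 or 2, or Si-FIBP#2 replicate 1 or 2 (-0.17 to -0.10, adjusted p = 0.0523 to 0.145). NARS1, LARS2 and AARS2 kept both calls in each of the 19 alternative analyses.

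WARS2, the mitochondrial tryptophan enzyme, showed the largest rise of the members with Si-FIBP#1, and FARS2, the mitochondrial phenylalanine enzyme, the largest with Si-FIBP#2, over all transcripts and on the log2(FPKM + 1) scale. WARS2 stood at 6.57, 6.48 and 6.77 FPKM in Scramble, at 11.62, 12.02 and 9.95 after Si-FIBP#1, and at 7.99, 7.61 and 9.61 after Si-FIBP#2. All 6 depleted samples were above Scramble, and those with Si-FIBP#1 were the highest. The log2 differences were 0.68 (SE 0.10, limma, adjusted p = 0.000425) and 0.30 (SE 0.10, adjusted p = 0.0306). FARS2 had 12.5, 14.2 and 13.19 FPKM in Scramble, 19.26, 18.09 and 16.59 after Si-FIBP#1, and 21.9, 17.36 and 20.28 after Si-FIBP#2. No depleted sample was as low as a Scramble sample, and the differences were 0.41 (SE 0.09, limma, adjusted p = 0.00568) and 0.54 (SE 0.09, adjusted p = 0.00118). WARS2 with Si-FIBP#2 did not pass under median ratio scaling (0.21, adjusted p = 0.114), without any 1 of the Scramble samples (0.29 to 0.32, adjusted p = 0.0581 to 0.0801) or without Si-FIBP#2 replicate 3 (0.21, adjusted p = 0.11), and FARS2 is taken up again with its transcripts.

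PARS2 and RARS2, the mitochondrial proline and arginine enzymes, also rose. PARS2, the least abundant member, was at 2.98, 3.27 and 3.37 FPKM in Scramble, 5.05, 4.26 and 4.54 after Si-FIBP#1, and 3.85, 4.43 and 4.3 after Si-FIBP#2. Every depleted sample lay above every Scramble sample, and the differences were 0.42 (limma, adjusted p = 0.00539) and 0.30 (adjusted p = 0.0242). RARS2 was at 31.55, 30.5 and 32.18 FPKM in Scramble, 36, 36.82 and 35.96 after Si-FIBP#1, and 42.38, 38.11 and 44.46 after Si-FIBP#2. It was highest in the Si-FIBP#2 samples, with differences of 0.20 (limma, adjusted p = 0.0239) and 0.39 (adjusted p = 0.000681). PARS2 with Si-FIBP#2 did not pass under median ratio scaling (0.23, adjusted p = 0.0774) or without Scramble replicate 1 or 2 or Si-FIBP#2 replicate 2 or 3 (adjusted p = 0.0536 to 0.076). Over annotated transcripts alone RARS2 differed by 0.17 with Si-FIBP#1 and did not pass (adjusted p = 0.082), and by 0.21 with Si-FIBP#2 (adjusted p = 0.0423). Its Si-FIBP#1 call was also lost under TPM or median ratio scaling (0.16 and 0.14, adjusted p = 0.0595 and 0.105) or without Scramble replicate 1 or 2 or Si-FIBP#1 replicate 2 (adjusted p = 0.0515 to 0.0822).

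HARS1 and SARS1, the cytosolic histidine and serine enzymes, rose slightly. HARS1 had 80.68, 76.15 and 78.15 FPKM in Scramble, 93.06, 95.31 and 87.91 after Si-FIBP#1, and 85.13, 91.87 and 86.48 after Si-FIBP#2. SARS1 had 98.79, 97.16 and 94.4 FPKM in Scramble, 112.5, 117.25 and 109.73 after Si-FIBP#1, and 107.26, 113.03 and 110.52 after Si-FIBP#2. In both genes every depleted sample exceeded every Scramble sample. HARS1 differed by 0.23 (limma, adjusted p = 0.00475) and 0.16 (adjusted p = 0.0251), and SARS1 by 0.22 (adjusted p = 0.00279) and 0.19 (adjusted p = 0.0071). Under median ratio scaling the Si-FIBP#2 calls were lost (0.07, adjusted p = 0.283 for HARS1 and 0.09, adjusted p = 0.114 for SARS1), and that of HARS1 was also lost without Scramble replicate 2 or 3 or Si-FIBP#2 replicate 2 (adjusted p = 0.0569 to 0.0924).

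The siRNAs were then set against each other. In Si-FIBP#2 samples 4 members were higher and 7 lower than in Si-FIBP#1 samples, against 9.58% and 5.8% of all genes tested, or 15.4% in either direction. No member was past 2-fold, against 0.561% of all genes. QARS1, the cytosolic glutamine enzyme, had the largest difference. It stood at 173.68, 149.61 and 151.46 FPKM in Scramble, at 133.37, 138.87 and 117.96 after Si-FIBP#1, and at 191.85, 180.86 and 190 after Si-FIBP#2. The 3 groups did not overlap, with Scramble in the middle. QARS1 was lower with Si-FIBP#1 (-0.28, SE 0.07, limma, adjusted p = 0.0116), higher with Si-FIBP#2 (0.25, SE 0.07, adjusted p = 0.0208) and 0.53 higher with Si-FIBP#2 than with Si-FIBP#1 (SE 0.07, adjusted p = 0.00225). The rise against Scramble did not pass under median ratio scaling (0.15, adjusted p = 0.121) or without Scramble replicate 2 or 3 or Si-FIBP#2 replicate 1 or 3 (0.21 to 0.24, adjusted p = 0.0576 to 0.0775), while the difference between the siRNAs passed in all 19 alternatives.

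SARS2, the mitochondrial serine enzyme, also separated the siRNAs. SARS2 was at 28.88, 26.27 and 27.48 FPKM in Scramble, 30.44, 29.09 and 30.32 after Si-FIBP#1, and 33.35, 46.09 and 37.96 after Si-FIBP#2. The Si-FIBP#2 samples were the highest and the most spread. It differed by 0.36 between the siRNAs (SE 0.10, limma, adjusted p = 0.0393) and by 0.48 between Si-FIBP#2 and Scramble (adjusted p = 0.00337). The former did not pass without Scramble replicate 2 or 3, any 1 of the Si-FIBP#1 samples or Si-FIBP#2 replicate 3 (0.34 to 0.38, adjusted p = 0.0545 to 0.113), and without Si-FIBP#2 replicate 2 it was 0.24 (adjusted p = 0.0437). Over transcripts of at least 1000 nt, an alternative chosen after seeing the data, the Si-FIBP#2 samples stood closer together, at 29.77, 32.44 and 30.91 FPKM. There the differences were 0.44 between the siRNAs and 0.50 against Scramble (limma, adjusted p = 0.000527 and 3.26e-05). SARS2 shares 10.8% of its exonic bases with MRPS12 on the other strand and 46.2% with the annotated gene AC011455.2 on its own strand (GENCODE 29), and the counting is not stated to use strand, so the reads of these genes may not be separable. WARS2 was 0.38 lower with Si-FIBP#2 than with Si-FIBP#1 (adjusted p = 0.0318) and did not pass without Si-FIBP#1 replicate 1 or 2 or Si-FIBP#2 replicate 1 or 2 (-0.35 to -0.32, adjusted p = 0.0681 to 0.112), and AARS2 was 0.37 higher (adjusted p = 0.0124) and passed throughout.

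The multi-synthetase complex supplied most of the genes that were lower with Si-FIBP#2 than with Si-FIBP#1. Of its 11 genes, which are 8 synthetases, AIMP1, AIMP2 and EEF1E1, 6 were lower and 1 was higher, against 5.8% lower and 9.58% higher among all genes tested, with a median log2 difference of -0.18, beside 0.04 over all genes. Among the lower genes were LARS1, KARS1, IARS1, AIMP1 and AIMP2, and the higher gene was QARS1. AIMP2 stood at 54.53, 59.59 and 55.66 FPKM in Scramble, at 67.29, 65.95 and 65.76 after Si-FIBP#1, and at 50.31, 55.18 and 51.71 after Si-FIBP#2. It was above Scramble in all Si-FIBP#1 samples, overlapped Scramble with Si-FIBP#2, and differed by -0.34 between the siRNAs (SE 0.05, limma, adjusted p = 0.00396). AIMP2 shares 28.9% of its exonic bases with EIF2AK1 on the other strand. AIMP1 stood at 40.01, 43.48 and 43.83 FPKM in Scramble, at 40.35, 43.14 and 43.34 after Si-FIBP#1, and at 36.53, 33.54 and 36.09 after Si-FIBP#2. Its Si-FIBP#1 samples overlapped Scramble and its Si-FIBP#2 samples lay below both groups, with a difference between the siRNAs of -0.25 (SE 0.06, limma, adjusted p = 0.0218). Over transcripts of at least 1000 nt the Si-FIBP#1 samples of AIMP1 did not overlap Scramble. They stood at 36, 37.05 and 37.98 FPKM, below 39.04 to 41.07 in Scramble, and the difference did not pass (-0.12, limma, adjusted p = 0.0538). LARS1 and KARS1, the leucine and lysine enzymes, were 0.25 and 0.23 lower with Si-FIBP#2 on the log2 scale (0.00841 and 0.00557 as adjusted p). The call of AIMP1 did not hold without Si-FIBP#1 replicate 2 or 3 or Si-FIBP#2 replicate 3 (-0.27 to -0.23, adjusted p = 0.0552 to 0.0789), and that of IARS1 (-0.17, adjusted p = 0.0439) was lost in 13 of 19 alternatives, which included leaving out any sample but Si-FIBP#2 replicate 2 (adjusted p = 0.0609 to 0.13). Against Scramble, the complex had 3 higher and 2 lower genes for Si-FIBP#1 and 1 higher and 4 lower for Si-FIBP#2, beside 27.8% and 19.9%, and 31.1% and 17.7%, of all genes tested.

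The remaining changes against Scramble were small and came with a single siRNA. Beside AIMP2, the genes that passed with Si-FIBP#1 alone included RARS1 and MARS2, which were higher by 0.23 and 0.26, and CARS1, which was lower by 0.38 (limma, adjusted p = 0.0198, 0.0212 and 0.00589). Apart from AIMP1 and SARS2, those that passed with Si-FIBP#2 alone were LARS1, KARS1, FARSA and CARS2, at -0.34, -0.29, -0.25 and -0.27, and IARS2, at 0.18 (limma, adjusted p = 0.000321, 0.000291, 0.00372, 0.0334 and 0.0128). A call with 1 siRNA and not the other is not a difference between them, and it depended on the scaling and on the transcripts summed. Under TPM and median ratio scaling LARS1 (-0.14 and -0.15, adjusted p = 0.0332 and 0.0268), KARS1 (-0.10 and -0.12, adjusted p = 0.0492 and 0.0434) and FARSA (-0.18 and -0.19, adjusted p = 0.0219 and 0.0101) also passed with Si-FIBP#1. AIMP2 was also lower with Si-FIBP#2 under median ratio scaling (-0.20, adjusted p = 0.0114), while it also passed as higher with Si-FIBP#1, and it was lower with Si-FIBP#2 over transcripts of at least 1000 nt (-0.13, adjusted p = 0.0487) and without Si-FIBP#2 replicate 2 (-0.15, adjusted p = 0.042). Over transcripts of at least 1000 nt CARS1 (-0.20, adjusted p = 0.0293) and MARS2 (0.20, adjusted p = 0.0371) also passed with Si-FIBP#2. Under TPM and median ratio scaling RARS1 lost its call (0.18 and 0.17, adjusted p = 0.063 and 0.0501), and under median ratio scaling IARS2 did (0.08, adjusted p = 0.213). The log2 differences of RARS1, CARS1, MARS2, FARSA, CARS2 and IARS2 between the siRNAs did not pass, although without Si-FIBP#2 replicate 2 those of RARS1, CARS1 and FARSA did (-0.17, 0.33 and -0.16, adjusted p = 0.032, 0.0137 and 0.046), as did IARS2 under TPM scaling (0.17, adjusted p = 0.0428) and CARS2 over transcripts of at least 1000 nt (-0.20, adjusted p = 0.0491). The call of CARS1 against Scramble was lost over annotated transcripts alone (-0.19, adjusted p = 0.16). Calls were also lost, at adjusted p = 0.051 to 0.116, for RARS1 without Scramble replicate 1 or 2 or Si-FIBP#1 replicate 3, for MARS2 without Scramble replicate 3 or Si-FIBP#1 replicate 1 or 2, for CARS2 without Scramble replicate 1 or 2 or Si-FIBP#2 replicate 1 or 3, and for IARS2 without Scramble replicate 2. The 12 genes that passed with neither siRNA were AARS1, EPRS1, FARSB, IARS1, MARS1, TARS1 and VARS1 of the cytosolic class and HARS2, NARS2, TARS2, VARS2 and YARS2 of the mitochondrial class. Their log2 differences ran from -0.16 for VARS1 with Si-FIBP#1 to 0.31 for MARS1 with Si-FIBP#2. Which genes passed depended on the scaling and on the transcripts summed. VARS1 was lower with Si-FIBP#1 under TPM scaling (-0.21, adjusted p = 0.0314), under median ratio scaling (-0.22, adjusted p = 0.0262) and over transcripts of at least 1000 nt (-0.36, adjusted p = 0.00041). IARS1 and TARS2 were lower with Si-FIBP#2 under median ratio scaling (-0.20 and -0.24, adjusted p = 0.00476 and 0.00991) and over transcripts of at least 1000 nt (-0.17 and -0.32, adjusted p = 0.00598 and 0.000982). Without Si-FIBP#2 replicate 2, AARS1 passed with Si-FIBP#1 (0.12, adjusted p = 0.0306), and IARS1 and TARS2 passed with Si-FIBP#2 (-0.15 and -0.21, adjusted p = 0.0141 and 0.0225). HARS1 and HARS2 are neighbours on opposite strands that share 5.56% and 11.7% of their exonic bases, and VARS2 shares 22% of its own with GTF2H4 on the same strand.

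Pairs of cytosolic and mitochondrial enzymes for the same amino acid shifted against each other for some amino acids. The ratio of NARS1 to NARS2 was 10.6 ± 1.11 in Scramble, 5.11 ± 0.41 after Si-FIBP#1 and 4.83 ± 0.49 after Si-FIBP#2 (SD, n = 3). NARS2 itself had group means of 9.04, 8.92 and 9.47 FPKM, and neither difference of NARS2 passed. In the opposite direction, the ratio of LARS1 to LARS2 was 8.33 ± 0.27 in Scramble, 17.3 ± 1.55 after Si-FIBP#1 and 14.3 ± 0.42 after Si-FIBP#2. AARS1 to AARS2 went from 5.50 ± 0.28 to 10.7 ± 0.16 and 7.74 ± 0.52. For tryptophan, both genes moved, WARS1 down and WARS2 up, and the ratio went from 18.6 ± 1.12 to 9.63 ± 1.35 and 13.3 ± 1.31. In these 4 pairs the Scramble samples did not overlap the depleted samples, and the ratios were not tested. The ratios also depend on the transcripts summed. Over those of at least 1000 nt, WARS1 stood at 65.86 in place of 122.64 FPKM in Scramble, and WARS2 at 6.09 in place of 6.61. Summed over each class, the cytosolic genes took 1762.9 to 1878.4 FPKM in Scramble, 1695.8 to 1721.2 after Si-FIBP#1 and 1700.6 to 1759.5 after Si-FIBP#2. The mitochondrial genes took 319.4 to 329.5, 317.2 to 323 and 331.2 to 338.6 FPKM. The sum of all 39 genes was 0.26% to 0.29% of all FPKM in every sample.

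Gene values were sums over transcripts, 636 for the 39 genes, of which 282 were under 1000 nt. The main NARS1 transcript, ENST00000256854 of 2762 nt, held 71.3% of the gene's FPKM in Scramble, with group means of 68.0, 31.6 and 30.9 FPKM. An assembled transcript of 2738 nt had means of 20.2, 8.29 and 8.71 FPKM. Both therefore followed the gene. LARS2 was likewise carried by ENST00000645846 of 4781 nt, at 7.88, 3.53 and 3.15 FPKM, and AARS2 by ENST00000244571 of 4798 nt, at 8.73, 4.71 and 6.46 FPKM. WARS2 rose in its main transcript ENST00000235521 of 2787 nt, from 5.91 to 8.87 and 6.99 FPKM. QARS1 was split over 53 transcripts, and its main transcript ENST00000306125 stood at 41.2 FPKM in Scramble, 29.6 after Si-FIBP#1 and 44.4 after Si-FIBP#2.

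FARS2 and MARS1 were different. The main FARS2 transcript, ENST00000274680 of 1679 nt, stood at 6.83, 7.08 and 7.34 FPKM, and the higher gene value came largely from assembled transcripts of 616 nt (1.9, 3.97 and 5.51 FPKM) and 709 nt (1.55, 2.93 and 3.13 FPKM) and from ENST00000324331 (1.2, 2.58 and 2.76 FPKM). Over annotated transcripts alone the FARS2 differences were 0.11 and 0.15 (limma, adjusted p = 0.555 and 0.404), and over transcripts of at least 1000 nt, assembled ones included, they were 0.26 and 0.30 (adjusted p = 0.0375 and 0.0172). MARS1, the cytosolic methionine enzyme, was singled out after its values were seen. Its gene value was 143.87, 99.63 and 103.38 FPKM in Scramble, 116.61, 128.35 and 142.89 after Si-FIBP#1 and 137.56, 134.13 and 154.31 after Si-FIBP#2, and these groups overlapped. The 216 nt transcript ENST00000630571 alone took 41.23, 4.11 and 11.59 FPKM in Scramble, 24.75, 43.26 and 55.51 after Si-FIBP#1 and 49.03, 34.15 and 58.54 after Si-FIBP#2. Over transcripts of at least 1000 nt MARS1 stood at 78.35, 73.96 and 73.63 FPKM in Scramble, 59.53, 60.17 and 57.41 after Si-FIBP#1 and 68.29, 72.79 and 70.91 after Si-FIBP#2. On these values the Si-FIBP#1 samples lay below all others, with a log2 difference of -0.35 (SE 0.05, limma, adjusted p = 7.03e-05), beside 0.17 over all transcripts (SE 0.13, adjusted p = 0.305). MARS1 shares 7.38% of its exonic bases with ARHGAP9 and 5.05% with DDIT3, both on the other strand. Without Scramble replicate 1 the differences over all transcripts were 0.34 (adjusted p = 0.0155) and 0.48 (adjusted p = 0.00309).

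ATF4 raises many genes of amino acid supply, and 11 of the cytosolic synthetases are widely described among its targets. Of these 11, NARS1, YARS1, CARS1, GARS1 and WARS1 were lower and SARS1 was higher with Si-FIBP#1, and the same genes except CARS1 passed with Si-FIBP#2. Their median log2 difference was -0.10 and -0.11. Without Scramble replicate 2 the Si-FIBP#2 calls of YARS1, GARS1 and WARS1 were lost, and under median ratio scaling that of SARS1 was. Among all genes tested, Si-FIBP#1 gave 19.9% lower and 27.8% higher, and Si-FIBP#2 gave 17.7% lower and 31.1% higher. Of 23 other genes of the pathway, ATF4 and its well known targets outside the synthetases, 22 were tested. Beside the same shares, Si-FIBP#1 gave 16 lower and 2 higher, and Si-FIBP#2 gave 9 lower and 1 higher, with medians of -0.48 and -0.18. PHGDH, the first enzyme of serine synthesis, stood at 55.4 ± 2.24 FPKM in Scramble, 19.2 ± 2.35 after Si-FIBP#1 and 18.9 ± 1.98 after Si-FIBP#2 (-1.49 and -1.51, limma, adjusted p = 3.22e-06 and 3.62e-06). SLC7A5, a transporter of large neutral amino acids, went from 54.5 ± 0.30 to 19.6 ± 1.85 and 21.7 ± 2.65 FPKM (-1.43 and -1.30). ASNS, which makes asparagine, the amino acid that NARS1 charges, went from 87.5 ± 4.44 to 33.2 ± 1.45 and 37.1 ± 2.37 FPKM (-1.37 and -1.22, limma, adjusted p = 6.61e-07 and 1.34e-06). MTHFD2, a mitochondrial folate enzyme, differed by -1.01 and -0.65. ATF4 itself, named for its role and after its values were seen, was at 127.8 ± 2.55, 75.6 ± 2.63 and 88.6 ± 4.46 FPKM (-0.75 and -0.52). SESN2, a stress-induced regulator of amino acid sensing, also named after its values were seen, was higher with each siRNA, at 0.46 and 0.76 (limma, adjusted p = 0.013 and 0.000854).

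The C/EBP-ATF response element, the site that ATF4 binds together with a C/EBP protein, was searched for as TGATGNAA on both strands (TTNCATCA on the other) in the RefSeq promoter windows, from 250 bases before to 50 bases after each start site (GRCh38.p14). Of the 39 genes 32 had a window, and those with none included LARS1, VARS1, VARS2, AARS2 and YARS1. The letters occurred in 8 of the 32 windows (25%), beside 4.46% of all 27305 genes with a window and 2.47% of the 10204 tested genes with a window. They occurred in 7 of 16 cytosolic genes and in 1 of 14 mitochondrial genes, YARS2. Of the other members with a match, GARS1 passed with each siRNA at less than 2-fold, CARS1 with Si-FIBP#1, and the rest with neither. The 30 bases around each match are shown because they set NARS1, which was past 2-fold with each siRNA, beside these carriers. Each reads 5′ to 3′ on the strand of its gene, with the match in capitals.
NARS1: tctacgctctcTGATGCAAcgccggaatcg
CARS1: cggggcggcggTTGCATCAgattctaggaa
GARS1: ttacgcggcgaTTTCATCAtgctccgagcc
IARS1: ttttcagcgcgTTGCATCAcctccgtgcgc
MARS1: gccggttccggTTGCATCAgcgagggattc
TARS1: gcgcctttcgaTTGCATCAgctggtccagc
AARS1: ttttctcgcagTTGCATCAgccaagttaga
YARS2: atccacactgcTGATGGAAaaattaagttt
ASNS: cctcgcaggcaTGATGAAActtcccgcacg
They lie at chr18:57621804-57621833 on the minus strand for NARS1, chr11:3057407-3057436 (minus) for CARS1, chr7:30594834-30594863 (plus) for GARS1, chr9:92293692-92293721 (minus) for IARS1, chr12:57488053-57488082 (plus) for MARS1, chr5:33440956-33440985 (plus) for TARS1, chr16:70289675-70289704 (minus) for AARS1, chr12:32756076-32756105 (minus) for YARS2 and, for comparison, chr7:97872458-97872487 (minus) for the pathway gene ASNS.

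Genes with the letters differed in how far they moved. NARS1 and ASNS, with TGATGCAA and TGATGAAA on the strand of the gene, were past 2-fold with each siRNA. The pathway genes CEBPG and SLC7A1, which carry these same letters on the same strand, differed by -0.18 and -0.03 and by -0.46 and -0.15, and YARS2, with TGATGGAA on that strand, by -0.06 and -0.10. ATF3, with the letters of YARS2 on the same strand, differed by -0.58 and -0.19. The other pathway genes with a match were SLC3A2, at -0.70 and -0.24, and CHAC1, at 0.33 and 0.29. SLC3A2 passed with each siRNA, ATF3, CEBPG and SLC7A1 with Si-FIBP#1 alone, and CHAC1 with neither. AARS1, CARS1, IARS1, MARS1 and TARS1 shared the same 8 letters as NARS1, read on the opposite strand, and among them only CARS1 with Si-FIBP#1 passed against Scramble. GARS1, with the letters of ASNS read on the opposite strand, differed by -0.20 and -0.17 (limma, adjusted p = 0.00819 and 0.019). TARS1 was at 107 ± 13.0, 98.9 ± 1.87 and 98.4 ± 10.3 FPKM, with differences of -0.10 and -0.11. In all, 3 of the 8 carriers were lower after Si-FIBP#1 and 2 after Si-FIBP#2, and the rest did not pass, beside 19.9% and 17.7% lower among all genes tested. Of the 24 genes with a window and no match, 4 were lower and 9 higher for Si-FIBP#1, and 7 lower and 9 higher for Si-FIBP#2, beside 27.8% and 31.1% higher among all genes. LARS2, whose FPKM fell to a lower share of Scramble than that of NARS1, was among those without a match. A match is a string of letters and was not tested for binding.

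Other genes of tRNA charging and delivery moved in both directions, 9 of 20 higher and 6 lower for Si-FIBP#1 and 9 higher and 5 lower for Si-FIBP#2. The shares among all genes tested were 27.8% higher and 19.9% lower, and 31.1% higher and 17.7% lower. SEPSECS, which completes the selenocysteine tRNA, was at 5.83 ± 0.17, 8.54 ± 0.28 and 9.99 ± 1.08 FPKM (0.48 and 0.68, limma, adjusted p = 0.00117 and 0.00015). QRSL1, a subunit of the mitochondrial amidotransferase that acts after EARS2, was lower, at 12.6 ± 0.49, 7.97 ± 0.40 and 8.83 ± 0.56 FPKM (-0.60 and -0.47, adjusted p = 0.000142 and 0.000618). The other subunits of that enzyme did not fall. GATB was higher with each siRNA (0.247 and 0.3, limma, adjusted p = 0.0213 and 0.00821). GATC was higher with Si-FIBP#1 (0.245, adjusted p = 0.0127) and did not pass with Si-FIBP#2 (0.072). EEF1D, of the elongation factor 1 complex, and AARSD1, which removes wrongly attached amino acids from alanine tRNA, differed by -0.47 and -0.46 and by -0.40 and -0.51. EEF1E1, the remaining scaffold of the multi-synthetase complex, named for that role after its values were seen, was at 81.7 ± 3.12, 63.0 ± 0.78 and 64.4 ± 5.50 FPKM (-0.37 and -0.34, limma, adjusted p = 0.0012 and 0.00189). WARS1 is also known as an interferon-induced gene. It was lower with each siRNA, whereas of 6 interferon-induced genes that passed the filter, out of 11 listed, 5 were higher for Si-FIBP#1 and 4 for Si-FIBP#2, against the same 27.8% and 31.1%, and IRF1 passed with neither. Among those higher with both, IFIT3 differed by 0.52 and 0.60 and ISG15 by 0.38 and 0.27. IFIT1 is counted among them (0.36 and 0.37), but its Scramble samples stood at 0.82, 1.05 and 1.19 FPKM. It met the filter of 1 FPKM in 3 samples only through the depleted samples, so its call is not independent of the filter.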

How the data were processed

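RNA from 9 samples of H1299 cells was sequenced after poly(A) selection, and the authors deposited 1 table per sample with an FPKM value for each Ensembl transcript and each transcript they assembled. The submitters' processing notes name HISAT2 and StringTie, and genome build and annotation release are not given in the sources used here. That the unit is FPKM was worked out from the values. No counts were used, so depth was estimated from the steps between low values, and error is the spread between samples. Transcript FPKM were summed per gene. The 14985 genes that reached 1 FPKM in 3 or more samples entered limma 3.58.1 (R 4.3.3) on log2(FPKM + 1), in 1 fit over 9 samples with an intensity trend and Benjamini-Hochberg adjustment; the 2-fold and 0.05 thresholds follow the study's methods. The fit was tested on simulated data. Values in every sample are given for members past the threshold with both siRNAs in 1 direction, in opposite directions or among the 6 largest differences between siRNAs, and for FIBP. Of other lists, up to 4 genes past it with both siRNAs are named, and a few more for their role or promoter letters. Members and lists were chosen with earlier results of these data known. Alternatives were other scalings, pseudocounts, filters, transcripts summed, groups fitted, a replicate block and leaving out each sample. Promoters come from RefSeq (GRCh38.p14), transcript types and overlaps from GENCODE 29. Tables and figures used Python 3.11.15, numpy 2.4.6, pandas 2.3.3 and matplotlib 3.10.9. Some genes are counted in the totals and their own values are not reported here.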

Additional observations from a re-analysis of the deposited data

Results flagged for a closer look

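For 11 of the 39 genes the effect of Si-FIBP#2 differed from that of Si-FIBP#1 by a test of the difference itself (limma, adjusted p below 0.05), against 15.4% of all genes tested. There were 6 without Si-FIBP#1 replicate 2 (3 higher and 3 lower), and 7 without Si-FIBP#1 replicate 1, Si-FIBP#1 replicate 3 or Si-FIBP#2 replicate 3 (3 higher and 4 lower), but 15 without Si-FIBP#2 replicate 2 (7 higher and 8 lower) and 18 over transcripts of at least 1000 nt (9 higher and 9 lower). Over all genes tested the calls moved too, from 2304 of 14985 to 1354 of 14851 without Si-FIBP#1 replicate 2. They were 2821 of 14785 without Si-FIBP#2 replicate 2 and 3315 of 12930 over transcripts of at least 1000 nt. Without Si-FIBP#1 replicate 1, Si-FIBP#1 replicate 3 or Si-FIBP#2 replicate 3 they were 1357 of 14851, 1776 of 14853 and 1268 of 14827. The effect of Si-FIBP#2 minus that of Si-FIBP#1 was 0.53 for QARS1, 0.37 for AARS2, 0.36 for SARS2 and 0.23 for YARS1 on the log2 scale. It was lower for the others, among them -0.38 for WARS2, -0.34 for AIMP2, -0.25 for AIMP1, -0.25 for LARS1, -0.23 for KARS1 and -0.17 for IARS1. AARS2, YARS1 and WARS2 differed from Scramble in the same direction with both siRNAs and by less with Si-FIBP#2. What sets the siRNAs apart was not tested.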

How the results depend on the processing

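Of 2217 gene values under the alternatives, 2050 kept their side of the threshold, 118 fell short of it, 48 newly passed it and 1 reversed, MARS1 with Si-FIBP#1, which was -0.346 over transcripts of at least 1000 nt, an alternative chosen after seeing the data. The 2217 include genes not called in the main analysis and alternatives that leave a difference unchanged. The 2050 is therefore not a rate at which calls held. Losses were uneven, with 13 of 19 alternatives for IARS1 between the siRNAs and 11 of 19 for WARS1 with Si-FIBP#2. Of the 2050, 41 changed sign and were not past the threshold in either analysis, MARS1 with Si-FIBP#2 among them (0.311 and, over transcripts of at least 1000 nt, -0.091). The replicate numbers did not pair the samples, as same-numbered samples correlated at -0.057 to 0.103 in their deviations. With the replicate block, 4 in place of 7 genes were lower with Si-FIBP#2 than with Si-FIBP#1, and no other count of calls moved by over 1.5 times. Over all 14985 genes tested, the calls between the siRNAs in either direction went from 2304 to 2177. Among the calls that the block ended were those of WARS1 and WARS2 with Si-FIBP#2 against Scramble (adjusted p = 0.0582 and 0.0539) and of WARS2, SARS2 and IARS1 between the siRNAs (adjusted p = 0.0592, 0.0625 and 0.0528).

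With Si-FIBP#1 the count past 2-fold, 1, was 2 under TPM scaling, median ratio scaling or a pseudocount of 0.1, 0 with annotated transcripts, and 1 to 2 when samples were left out, 2 without Scramble replicate 2 or Si-FIBP#1 replicate 1. The cytosolic median of -0.075 became -0.121 (TPM), -0.133 (median ratio) and -0.055 (at least 1000 nt), and -0.089 to -0.054 without single samples. The mitochondrial median of -0.017 became -0.059, -0.069 and 0.026, and -0.022 to 0.029. With Si-FIBP#2, 3 in place of 9 genes were higher under median ratio scaling, and 4 to 9 without single samples, 4 without Scramble replicate 2. Over all genes, 7309 of 14985 passed in either direction with Si-FIBP#2. Under median ratio scaling 6988 of 14946 did, and without Scramble replicate 2 6185 of 14843. Of the members, the count past 2-fold with Si-FIBP#2, 1, was 2 under TPM, median ratio, a pseudocount of 0.1 or at least 1000 nt, and 0 to 1 without single samples, 0 without Si-FIBP#2 replicate 2. The cytosolic median of -0.09 became -0.186 (median ratio) and -0.11 to -0.059 without single samples, and the mitochondrial median of 0.062 became -0.026 (median ratio), -0.011 (filter of 5 FPKM), -0.068 (at least 1000 nt) and 0.006 to 0.108.

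Between the siRNAs, 7 (TPM) and 9 (at least 1000 nt) in place of 4 genes were higher, and 3 to 7 without single samples, 7 without Si-FIBP#2 replicate 2. Lower were 4 in place of 7 without the filter or with only the groups compared, and 3 to 8 without single samples. Over all genes, 2304 of 14985 passed in either direction, 2546 of 15646 under TPM and 3315 of 12930 at 1000 nt or more. Without the filter 1569 of 32076 did, and with only the groups compared 1656 of 14589. The cytosolic median of -0.025 became 0.02 (TPM) and -0.048 to -0.001, and the mitochondrial median of 0.013 became 0.052 (TPM), -0.019 (median ratio), 0.046 (5 FPKM), 0.034 (annotated transcripts), -0.064 (at least 1000 nt) and -0.005 to 0.04. Their causes were not tested.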
